A study of Mus musculus with 3 samples.

Results

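The KCNE and KCNQ potassium channel subunits considered were 7 of 21597 named mouse genes, Kcne1, Kcne2, Kcne3, Kcne4, Kcnq1, Kcnq3 and Kcnq5. They were found by name, as all non-control probes that carry one of these symbols in the scanner tables, which gave 11 of 41174 probes, each spotted once per array. The samples were choroid plexus epithelium (CPE), the cells that line the choroid plexus and face the ventricles of the brain, from 3 healthy adult C57BL/6 mice. The CPE cells were cut by laser dissection from 20 µm cryosections of the whole brain, and the amplified mRNA of each mouse was labelled with Cy5 and hybridised to a 2-colour Agilent mouse array. The Cy3 channel of all 3 arrays held 1 common RNA of C57BL/6 eyes, from the choroid and the retinal pigment epithelium (RPE). No dye swap was made, so any dye bias of a probe remains in its ratio, and in dissected tissue fewer cells of a type and less RNA per cell cannot be told apart.

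KCNQ proteins form the pore of voltage-gated potassium channels, and KCNE proteins are small membrane-spanning beta subunits that join them and change their gating, trafficking and current. KCNQ1 with KCNE1 gives the slow delayed rectifier current of the heart, KCNQ1 with KCNE2 or KCNE3 gives channels that stay open at rest in epithelia such as stomach and intestine, and KCNQ3 and KCNQ5 contribute to the neuronal M current. In the choroid plexus, which secretes cerebrospinal fluid, KCNE2 is known to sit at the apical membrane with KCNQ1.

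Kcne2 was the member with the strong signal in CPE, and no other member came near the top of the array. Its probe was brighter than 99.8% of all probes in CPE and 17.96-fold higher in CPE than in the reference. Kcnq1, its pore-forming partner, was at a moderate level with a ratio of 1.53-fold in the main fit, short of the 2-fold limit. Kcne4 was moderate and did not differ from the reference past the threshold, and the probes of Kcne1, Kcne3, Kcnq3 and Kcnq5 were low or very low. Only probes with a signal well above background in the same channel on every array were tested, which were 4 of the 11, those of Kcne2 and Kcne4 and both of Kcnq1. The threshold was an adjusted p under 0.05 in limma together with a 2-fold change. Among the 4 tested probes, 1 was higher and 0 were lower in CPE, and over all 25841 tested probes 7.09% were higher and 10.2% were lower. The first Kcnq1 probe passed the adjusted p but not the fold, and with no limit on the fold 39.2% of all tested probes passed the adjusted p.

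The arrays differed in their signal, and this bears on the dim members. In the CPE channel 58.5%, 46.0% and 85.6% of all probes were well above background in mice 1, 2 and 3. The median intensity of the negative control spots was 77.5, 78.1 and 357 in the CPE channel and 107, 105 and 229 in the reference channel. A given intensity was therefore closer to the negative controls in mouse 3 than in the other mice. In mouse 3 a probe could be well above background and still lie within the range of the negative controls. The second Kcnq5 probe was so at a CPE intensity of 409, under the 95th percentile of the control spots, 426. The members are therefore given below also as a multiple of that array's negative control median. Of 10 markers of CPE, such as Ttr, Kl and Folr1, 9 were higher than the reference, and Otx2 was at a log2 ratio of 0.14. Of 10 RPE and melanocyte markers 9 were lower, as were 7 of 7 photoreceptor markers, and the CPE channel held 4.06 to 7.47% and 4.63 to 8.13% of the summed reference level of these lists. Markers of other cells of the plexus and brain were also detected, and 6 of 6 endothelial and 5 of 5 smooth muscle markers were above background in CPE in all 3 mice. Of these, 1 endothelial marker was higher and 2 smooth muscle markers were lower, as were 5 of 6 stroma, 3 of 5 macrophage and 3 of 6 neuron markers. Of 4 astrocyte markers 1 was higher and 1 was lower, and of 3 tested oligodendrocyte markers 1 was higher. The summed level in CPE was 119 to 256% of the reference for endothelial and 197 to 348% for oligodendrocyte markers. For astrocyte markers it was 54.0 to 101% and for smooth muscle markers 27.7 to 152%. For stroma, macrophage and neuron markers it was 26.3 to 41.6%, 22.5 to 29.3% and 17.7 to 31.1%.

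**Figure D1:**
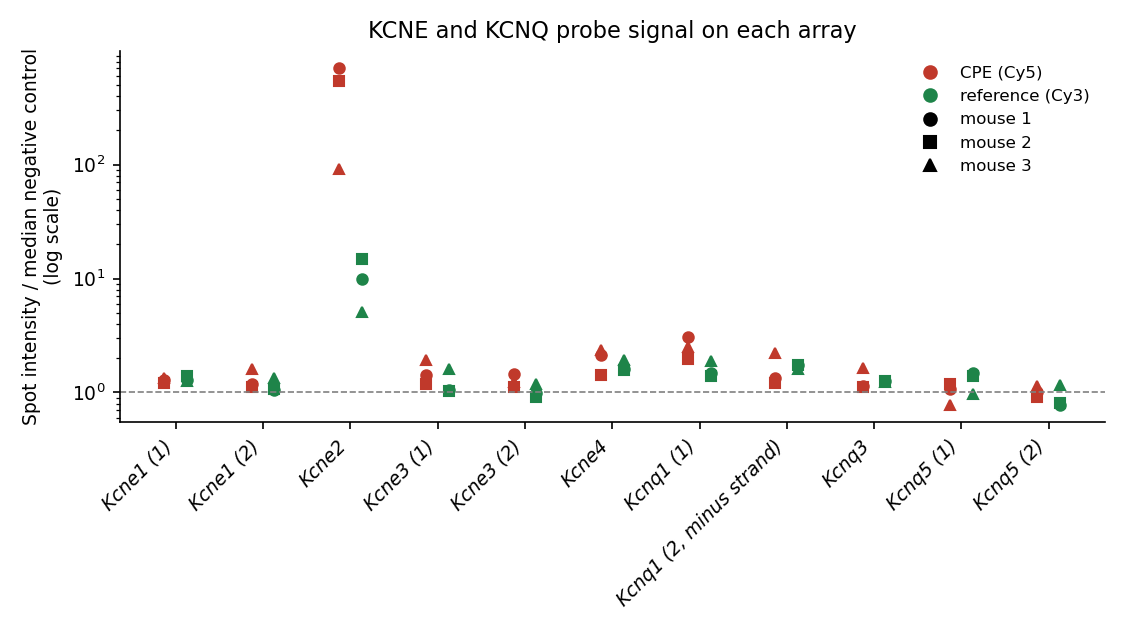
Spot intensity of the 11 member probes on each array, divided by the median negative control intensity of the same array and channel (log scale), for CPE in red and the reference in green, with a symbol for each mouse and a dashed line at 1. The Kcne2 probe lies from 91.5 to 709 in CPE, and no CPE value of another member is above 3.06.

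Kcne2, a beta subunit of KCNQ1 and other potassium channels, was measured by 1 probe at chr16:92186769-92186828 on the plus strand of mouse build mm8. Its CPE intensity was 54920, 42152 and 32666 in mice 1, 2 and 3, with no saturated spot. Its reference intensity was 1055, 1565 and 1165. The CPE and reference values did not overlap, and each CPE value was above each reference value on every array. Relative to the negative controls the CPE signal was 709, 540 and 91.5 times their median, lowest in mouse 3, whose negative controls were brightest. The normalized log2 level was 15.36 ± 0.24 (SD, n = 3) in CPE and 10.27 ± 0.41 (SD, n = 3) in the reference. In CPE the probe was at the 99.8, 99.8 and 99.7 percentile in the 3 mice, at rank 74 from the top by its mean level. It was also in the high class in the reference, above the 90th percentile, at 90.8. The log2 ratio of CPE over reference was 4.49, 3.93 and 4.08 in the 3 mice, with a mean of 4.17 (SE 0.17, 95% interval 3.77 to 4.56, adjusted p = 7.76e-06 in limma). By ratio it held rank 16 from the top of the 25841 tested probes. Kcne2 was past the threshold in each of 11 alternative settings.

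**Figure D2:**
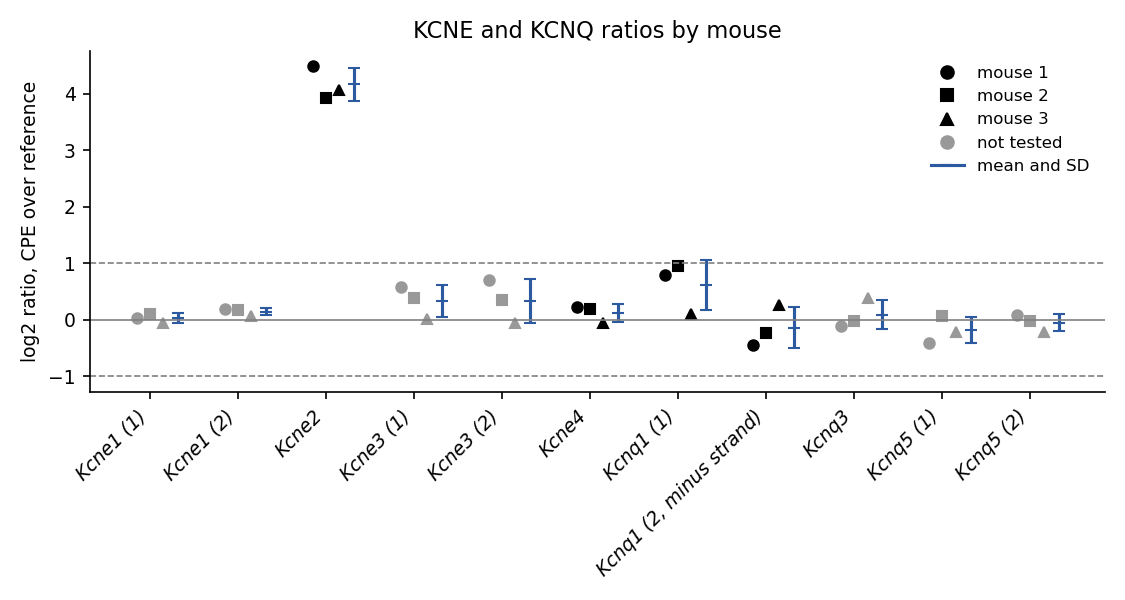
Log2 ratio of CPE over reference of the 11 member probes in each mouse (symbols), with the mean and SD in blue and dashed lines at a 2-fold change; grey symbols mark the 7 probes that were not tested. The 3 mice lie between 3.93 and 4.49 for Kcne2, and all values of the other members lie between -0.44 and 0.95.

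To show the DNA next to the gene that carries this result, the 250 bases before the start of Kcne2 were read from RefSeq on mouse assembly GRCm38.p6, chr16:92292139-92292388, plus strand. RefSeq lists 2 starts for Kcne2, and the stretch ends at the outer one. Capitals mark matches, on either strand, to motifs that were searched by their letters.
Kcne2: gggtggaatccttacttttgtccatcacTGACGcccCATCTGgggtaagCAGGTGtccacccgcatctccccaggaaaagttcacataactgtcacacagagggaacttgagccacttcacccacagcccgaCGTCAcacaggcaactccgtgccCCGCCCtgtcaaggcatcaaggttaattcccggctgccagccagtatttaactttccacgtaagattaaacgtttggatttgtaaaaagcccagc
The CRE half-site TGACG matched 2 times, and 17.8% of 32851 promoter stretches of the same length hold it. The GC box GGGCGG matched 1 time (32.7% of all promoters) and the E box CANNTG 2 times (66.2%). The OTX core TAATCC (6.25% of all promoters), the TATA box TATAAA (12.4%) and the CCAAT box CCAAT (33.8%) did not match in these letters. These matches describe the sequence, and the arrays hold no measurement of binding to it.

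Kcnq1, the pore-forming alpha subunit that pairs with KCNE2 in epithelia, was measured by a probe for its RefSeq transcript at chr7:143236225-143236284 on the plus strand. Its CPE intensity was 237, 154 and 889 in mice 1, 2 and 3, or 3.06, 1.98 and 2.49 times the negative controls. Its reference intensity was 158, 145 and 436, or 1.47, 1.38 and 1.90 times the negative controls. Both channels were well above background on all 3 arrays. The multiples in CPE were all above those in the reference, but the negative controls differed between the channels, so the multiples alone do not measure a difference. The probe was at the 64.3 percentile in CPE and the 50.4 percentile in the reference, in the moderate class in both. The log2 ratio was 0.79, 0.95 and 0.11, above 0 in 3 of 3 mice and lowest in mouse 3. The mean was 0.61 (SE 0.20, 95% interval 0.15 to 1.07, adjusted p = 0.042 in limma), a fold of 1.53. This adjusted p was near its limit and was not kept without mouse 1 (0.22) or without mouse 2 (0.17), and without mouse 3 the log2 ratio was 0.87 (adjusted p = 0.0096). The adjusted p in limma was also above 0.05 with no background correction (0.0665) and with centring on the median in place of loess (0.18). The same held with the scanner's own ratio (0.0599) and with no filter on dim probes (0.0554). It was under 0.05 with a weight for each array (0.0080), with both channels required above background (0.037) and with an offset of 16 (0.043). The size of the log2 ratio changed with the handling of background. It was 0.53 with no correction, 0.79 with the offset of 16 and 1.03, past 2-fold, with the scanner's own ratio.

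The other probe named Kcnq1 in the scanner tables, for a cDNA clone, lay at chr7:143067049-143067108, 169 kb from the first and on the minus strand, opposite to the gene. Over all probes matched by accession, 99.6% had coordinates on the strand of their gene. The probe is therefore not read here as a measure of the Kcnq1 mRNA, and the transcript it detects was not identified here. Its CPE intensity was 104, 95.03 and 789, well above background in mouse 3 alone, and its reference intensity was 186, 185 and 370, well above background on all arrays. Its log2 ratio was -0.44, -0.23 and 0.26, with a mean of -0.14 (SE 0.18, 95% interval -0.56 to 0.29, adjusted p = 0.59), and without mouse 1 the mean was 0.015. The ratios of the probe pair differed by 1.22, 1.17 and -0.15, so that both were near each other in mouse 3 and apart in mice 1 and 2.

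**Figure D3:**
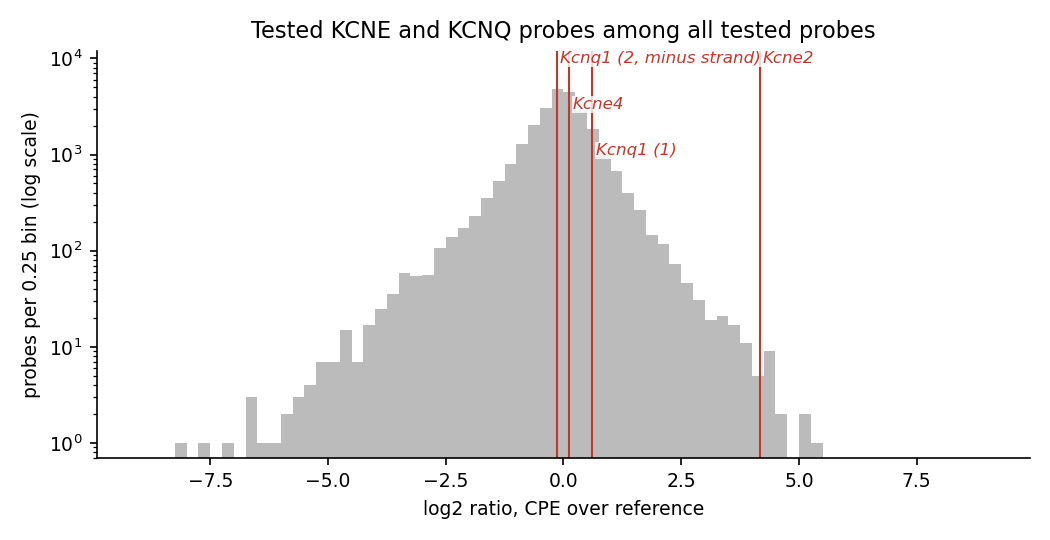
Number of tested probes per bin of log2 ratio of CPE over reference (grey bars, log scale), with red lines at the 4 tested member probes. Kcne2 lies at 4.17 near the right end of the distribution, at rank 16 of 25841, while Kcne4 and both Kcnq1 probes lie between -0.14 and 0.61.

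Kcne4, a beta subunit that inhibits KCNQ1 and some Kv1 channels, was measured at chr1:78698287-78698346, plus strand. Its CPE intensity was 167, 111 and 842, and its reference intensity was 173, 165 and 447. These were 2.15, 1.42 and 2.36 times the negative controls in CPE and 1.61, 1.58 and 1.95 times in the reference, and the groups overlapped. The probe was moderate in both, at the 57.1 and 55.6 percentile. Its log2 ratio was 0.23, 0.19 and -0.05, with a mean of 0.12 (SE 0.15, 95% interval -0.24 to 0.48, adjusted p = 0.57). A change of 2-fold in either direction in the measured ratio lies outside this interval. Both channels were at most 2.36 times the negative controls, and the offset added before the ratio makes ratios of dim probes smaller. The interval reflects the scatter between arrays, so it cannot exclude a 2-fold change in the transcript. Smooth muscle, a known site of Kcne4, was represented by a summed marker level of 4330 to 17091 in CPE and 11264 to 15641 in the reference, and its part in the Kcne4 signal was not tested.

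Kcne1, the beta subunit of the cardiac slow rectifier, was measured by 2 probes on the minus strand at chr16:92237359-92237418 and chr16:92234865-92234924. The CPE intensities were 99.1, 94.99 and 479 for the first and 92.5, 86.8 and 569 for the second, well above background in mouse 3 alone. They were 1.22 to 1.34 and 1.11 to 1.59 times the negative controls. Both probes were in the low class, at the 31.0 and 27.8 percentile. Their log2 ratios were 0.04, 0.11 and -0.05 and 0.18, 0.17 and 0.07, and the probes agreed within 0.15 in every mouse. Neither probe of Kcne1 was tested.

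Kcne3, the beta subunit that holds KCNQ1 open in intestine and airway, was measured by 2 probes at chr7:100058635-100058694 and chr7:100058513-100058572, plus strand, 122 bases apart. The CPE intensities were 111, 93.3 and 694 for the first and 113, 87.2 and 441 for the second, well above background in mice 1 and 3. Both probes were low, at the 41.6 and 27.8 percentile in CPE. In the reference they were low and very low, at 19.0 and 8.15. The log2 ratios were 0.58, 0.39 and 0.02 for the first and 0.71, 0.35 and -0.06 for the second. Both probes kept the same order of the mice, with mouse 1 highest and mouse 3 at about 0, and as neighbours in 1 transcript they are not independent. Neither entered the main test. With no filter on dim probes their log2 ratios were 0.33 (adjusted p = 0.17) and 0.33 (adjusted p = 0.22).

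Kcnq3, a pore-forming subunit of the neuronal M current, was measured by 1 probe at chr15:65825397-65825456, minus strand. Its CPE intensity was 88.5, 86.6 and 583, or 1.14, 1.11 and 1.63 times the negative controls, and it was well above background in mouse 3 alone. It was low in CPE, at the 28.4 percentile, with a log2 ratio of -0.10, -0.01 and 0.38. Kcnq5, the M current subunit that is also found in smooth muscle, had 2 probes at chr1:21387294-21387353 and chr1:21387566-21387625, minus strand. The CPE intensity of the first was 83.6, 93.2 and 277, in no mouse well above background, and that of the second was 78.2, 71.3 and 409, well above background in mouse 3. Both were very low, at the 8.84 and 4.74 percentile, and the CPE multiples of the negative controls reached at most 1.19 for either. The log2 ratios were -0.40, 0.06 and -0.21 for the first and 0.09, -0.02 and -0.21 for the second. The first probe was above background in the reference on 2 arrays. Kcnq5 was the only member gene whose probes all fell in the very low class in CPE. That class was not stable for the first probe, which was at 13.7 after quantile normalization of the red channel, 13.5 in the deposited log2 levels and 26.5 without mouse 3, nor for the second, which was at 17.6 in the scanner's processed signal.

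Across the family, 3 of 11 probes were well above background in CPE in all 3 mice and 4 of 11 in the reference on all arrays, against 44.9% and 61.5% of all probes. By the less strict comparison with the negative controls, 8 of 11 probes exceeded the 95th percentile of the control spots in CPE on every array and 5 of 11 did so in the reference, against 63.3% and 62.9% of all probes. The 3 probes below that limit in CPE on some array were those of Kcnq3 and Kcnq5. The SD of the log2 level between mice ranged in CPE from 0.14 for the first Kcnq5 probe to 0.66 for the Kcnq1-named probe on the opposite strand, with 0.24 for Kcne2, and it was larger in CPE than in the reference for 8 of 11 probes. Without mouse 3 this held for 5 of 11, and after quantile normalization of both channels also for 5. The median SD over the 17945 probes measured in both channels was 0.34 in CPE and 0.31 in the reference.

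A further family member and known partners and regulators were read from lists of 35 genes, of which 34 had a probe and 25 were tested, with the brightest probe for each gene. Of these, 3 were higher and 7 were lower in CPE, or 12% and 28%, against 7.09% and 10.2% of all tested probes. The shares are unlike, as the lists count the brightest probe of each gene and the background counts every tested probe. With centring on the median in place of loess, 8 were higher and 6 were lower, and 14.5% of all tested probes were higher. Kcne5, a beta subunit listed under its older name Kcne1l, was at -0.69, -0.31 and -1.09, with a mean of -0.70 (SE 0.19, adjusted p = 0.022), under 2-fold. With the scanner's own ratio it was past the threshold at -1.52 (adjusted p = 0.041).

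Among 11 channels and transporters known to join with KCNE or KCNQ1 subunits, 8 were tested, 1 was higher and 3 were lower, and the median log2 ratio was -0.02 against -0.04 for all tested probes. Kcnh2, which encodes the ERG channel that KCNE2 joins in the heart, was higher in CPE at 2.66, 1.94 and 2.03, a mean of 2.21 (SE 0.19, adjusted p = 0.00013) or 4.63-fold. Lower in CPE were the delayed rectifiers Kcna1 at -1.75, Kcnc2 at -1.23 and Kcnc1 at -1.03. The other probes of Kcnc1 and Kcnc2 were not past the threshold. For Kcnc1 they were at -0.41 (adjusted p = 0.090) and, not tested, at 0.76, 0.31 and 0.20, and for Kcnc2 at -0.91 (adjusted p = 0.0088) and, not tested, at -0.15, -0.29 and 0.25. These are genes of excitable cells, and in the same ratios 3 of 6 neuron and 7 of 7 photoreceptor markers were lower in CPE. The summed neuron marker level was 2762 to 4041 in CPE and 12354 to 15647 in the reference. All 6 neuron markers were above background in CPE in all mice, and their part in the channel ratios was not tested. The calls of Kcnc1 and Kcnc2 were lost with no background correction and in a test against a 2-fold change, and that of Kcnc1 also without mouse 1. Slc5a3, the sodium-coupled myo-inositol transporter that forms complexes with KCNQ1 and KCNE2 in the choroid plexus, was at 0.41, 0.42 and 0.10, with a mean of 0.31 (SE 0.16, adjusted p = 0.16).

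Among 17 regulators of KCNQ channels, 16 had a probe and 14 were tested, 1 was higher and 3 were lower, and the median log2 ratio was -0.14. Prkaca, the catalytic subunit of protein kinase A, was higher at 1.67, 1.69 and 1.58, a mean of 1.65 (SE 0.15, adjusted p = 0.00017). Ank3, an ankyrin that anchors KCNQ3 channels in axons, was lower at -1.89 with its other probe at -0.81, under 2-fold, and Nedd4l, a ubiquitin ligase that acts on KCNQ1, was lower at -1.61. Calm2, a gene of the calcium sensor calmodulin, was lower at -1.29, and its other probe was at -2.06. The main probe of Calm3, which encodes the same protein, was not past the threshold, at 0.69. Median centring moved Calm2 to -0.32 (adjusted p = 0.53) and brought Calm3, Akap9, Pip5k1b, Pip5k1c and Nedd4 past the threshold as higher. In the main fit the other probes of Calm3 were at 0.81 and -0.44 and those of Akap9 at -0.75 and 0.37. The other probe of Nedd4 was at -0.23 and that of Pip5k1c at 0.29, and all of these were short of the threshold. The calls of Calm2 and Nedd4l were lost in the test against a 2-fold change.

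Among 6 partners of KCNE2 and KCNQ1 in acid and anion secretion, 2 were tested. Clic6, an intracellular chloride channel protein that is also a marker of CPE, was higher at 2.15, 2.28 and 2.61, a mean of 2.35 (SE 0.16), and was saturated in CPE on 1 array. Its other probe was not tested, with ratios of 0.24 and 2.02 in mice 2 and 3. Slc26a7, an anion exchanger of the stomach and kidney, was lower at -1.82, and its other probe was at -0.56. The subunits of the gastric proton pump, Atp4a and Atp4b, were not tested and had log2 ratios of 0.20, 0.31 and 0.13 and of 0.12, -0.07 and 0.18.

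**Figure D4:**
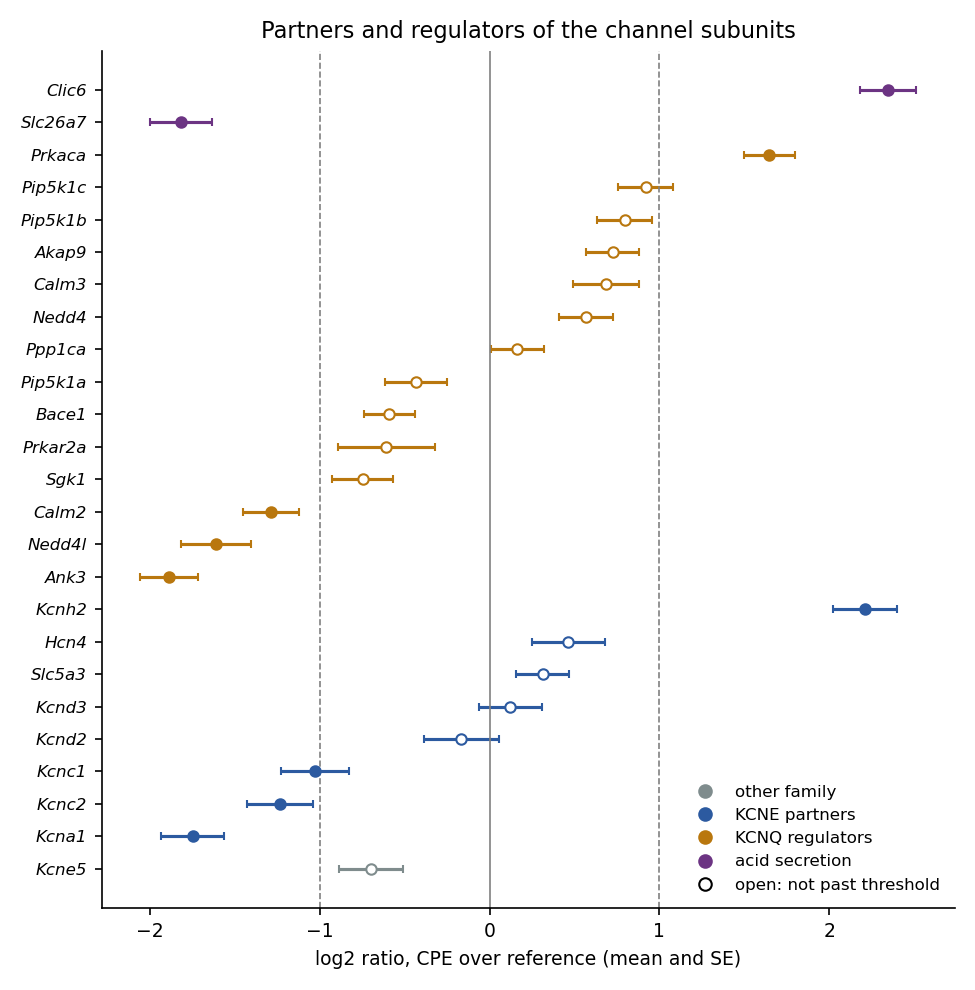
Mean log2 ratio of CPE over reference with its SE (n = 3 mice) for the 25 tested genes of the partner and regulator lists, coloured by list, with filled symbols past the threshold and dashed lines at 2-fold. Filled symbols lie on the right for Clic6, Kcnh2 and Prkaca and on the left for 7 genes, of which Ank3 is lowest at -1.89.

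Kcne1 and Kcne2 lie on the same chromosome in opposite orientation, with 48.0 kb between their probes, and their log2 ratios lay apart in every mouse, at 3.93 to 4.49 for Kcne2 and -0.05 to 0.18 for Kcne1. The genes between them did not share the ratio of Kcne2. Smim11 was at 0.11 (SE 0.15, adjusted p = 0.61), and the tested probe of Fam243 was at 0.37 (SE 0.16, adjusted p = 0.11). Beyond Kcne1, the probes of Rcan1 were at -0.39 and 0.15. Of the genes within 200 kb of either probe, Mrps6, which encodes a mitochondrial ribosomal protein, was higher with 1 probe, at 1.09, while its other probe, at 0.90, was under 2-fold, and Clic6 was the other gene past the threshold as higher. Over the windows of all members, 61 other probes were found, 43 were tested, 3 were higher and 7 were lower. Of all tested probes 7.09% were higher and 10.2% were lower, and some of these calls were 2 probes of the same gene.

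**Figure D5:**
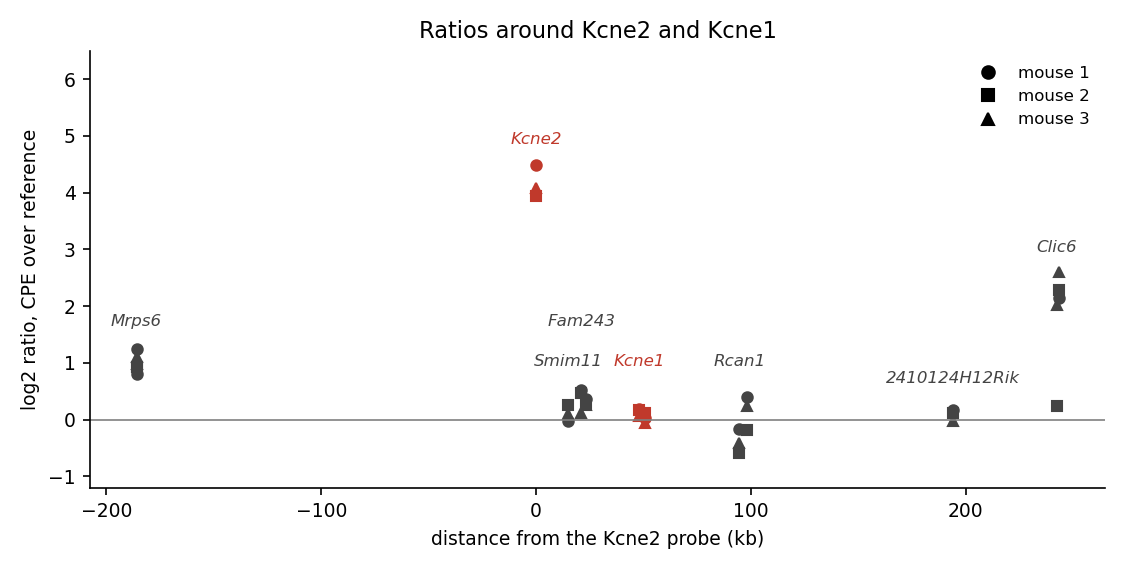
Log2 ratio of CPE over reference of each probe around Kcne2 and Kcne1, in each mouse (symbols), against its distance from the Kcne2 probe in kb; both members are in red. Kcne2 lies between 3.93 and 4.49, the probes from Smim11 to 2410124H12Rik lie between -0.59 and 0.52, and at the edges the probes of Mrps6 and the brighter probe of Clic6 lie above that range, with the other Clic6 probe at 0.24 and 2.02.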

How the data were processed

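The authors scanned the arrays and deposited the Cy5 and Cy3 intensity of every spot as given by Agilent Feature Extraction 9.5.3.1, with a log10 ratio of the processed signals. They also deposited log2 levels of the CPE channel, which they normalized between arrays with Aquantile. Per the submitters' processing notes they used R 2.14.0 and limma.

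The members and gene lists were chosen with earlier results of these data known. R 4.3.3 and limma 3.58.1 were used here. Control and outlier spots were left out. For ratios, intensities were corrected with normexp (offset 50) and normalized within arrays by loess, and limma fitted an intercept alone with Benjamini-Hochberg adjustment over 25841 probes. Levels used red and green intensities without background correction, on the log2 scale after Aquantile. Percentiles ran over all 41174 probes, and the classes were high above 90, moderate from 50, low from 10 and very low below 10. They do not order transcripts of different genes by abundance.

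All member probes were named, with the other family gene listed and, for each other list, up to 6 genes past the threshold, largest first. Further list genes were named after their values were seen. The 3 genes with ratios nearest to those of a member past the threshold were taken by Euclidean distance. The lists held 101 entries in 14 lists, 10 of them of cell type markers, and some genes of these lists are not reported here and not counted. Symbols came from RefSeq by accession for 23374 probes and otherwise from the scanner tables. Coordinates are those of the scanner tables, on mm8, and exons and introns are not given because no annotation of that build was used. Since 1 reference RNA served all arrays, differences between reference animals do not enter the error. The number of arrays, 3, limits the precision. Each array lay on its own slide, and 2 of the 3, those of mice 1 and 3, were scanned on the same day, so values without mouse 2 are within that scan day. The test was checked on simulated data.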

Additional observations from a re-analysis of the deposited data

How the results depend on the processing

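Kcne2 stayed past the threshold under all 11 alternatives, with log2 ratios from 4.01 to 5.01, and the count of member probes higher remained 1 and that of member probes lower 0, also with each mouse left out (1 to 1 and 0 to 0). The count of member probes in the high class was 1 throughout. The Kcnq1-named probe on the opposite strand turned from -0.14 to 0.015 without mouse 1, over a range of -0.33 to 0.015 with each mouse left out, and the cause was not tested. With centring on the median the probes higher in CPE numbered 3744 in place of 1833, 67.0% of called probes in place of 41.1%, and the median tested ratio moved from -0.04 to 0.09. With the scanner's ratio the probes higher numbered 2850. A test against a 2-fold change gave 455 higher and 959 lower, fewer by its construction. Among the partner and regulator genes, median centring gave 8 higher and 6 lower in place of 3 and 7, and the test against 2-fold gave 3 lower. Leaving out each mouse gave 1433 to 2482 probes higher, 2591 to 2829 lower, 3 to 4 partner and regulator genes higher and 6 to 7 lower. The count of member probes with the larger SD in CPE was 5 after quantile normalization and 5 to 8 with each mouse left out. Kcne4 and Kcnq1 moved to the low class, at 10.4 and 21.5, when only probes above background in CPE were ranked, and the Kcnq1-named probe on the opposite strand moved to 50.5 without mouse 1. Each log2 ratio pairs CPE with the reference on 1 array, and no further pairing was possible because the 3 arrays form 1 group. The level of dim members is limited by the signal over background, which differed between arrays.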

Other observations

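The genes whose ratios over the 3 arrays lay nearest to those of Kcne2, among 13322 genes, were Igfbp2, Slc4a10 and Tbc1d9, at Euclidean distances of 0.21, 0.29 and 0.34 on the log2 scale. Igfbp2 encodes a secreted binding protein of insulin-like growth factors and was at 4.51, 4.10 and 4.21 in mice 1, 2 and 3. Slc4a10 encodes a sodium-coupled bicarbonate transporter of the choroid plexus and was at 4.26, 4.07 and 4.21. Tbc1d9 was at 4.75, 4.15 and 4.10. All 3 were above the 99th percentile in CPE, at 99.9, 99.6 and 99.2. With 3 arrays this closeness is a description.

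Outside the locus of Kcne1 and Kcne2, 5 named genes within 200 kb of a member probe had at least 1 probe past the threshold. Of all tested probes 17.3% were past it in either direction, so these genes are listed as a description. Cdkn1c, a cell cycle inhibitor that lies 31.95 kb from the Kcnq1 probe, was higher at 2.32 (SE 0.15, adjusted p = 3.9e-05). A minus-strand probe with no gene name, 19.4 kb from the Kcnq1-named probe on that strand, was lower at -1.25 (SE 0.25, adjusted p = 0.0066). Nearer minus-strand probes with no gene name were not past the threshold, at -0.55 (adjusted p = 0.082) and -0.31 (adjusted p = 0.16). Whether they share a transcript with the Kcnq1-named probe was not tested. Near Kcnq5, both probes of the glutathione transferase Gsta3 were lower, at -5.21 and -4.00. Acsl3 near Kcne4 was lower at -2.22, Pgm2l1 near Kcne3 at -1.86 and -1.63, and 1 probe of Efr3a near Kcnq3 at -1.07 (-0.38, -2.03 and -0.79 in the 3 mice). The 2 other probes of Efr3a, both brighter, were not past the threshold, at -0.45 (adjusted p = 0.10) and -0.44 (adjusted p = 0.066), and the other Pgm2l1 probe was not tested.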
